A study of Mus musculus with 2 samples.

Results

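The 8 genes described here, Dusp1, Dusp2, Dusp4, Dusp5, Dusp6, Dusp7, Dusp10 and Dusp16, encode dual-specificity phosphatases that switch MAP kinases off. Open chromatin around them was read from ATAC-seq peaks of mouse blood monocytes. An open region was given to one of these genes when its summit, the point of strongest signal, lay in the gene body, or when the nearest protein-coding transcription start site (TSS) was one of that gene and lay within 100 kb. By this rule the 8 genes, out of 21853 protein-coding genes, held 52 of the 28438 open regions of the series. The rule used the position of a region and not its strength.

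The cells were peripheral blood monocytes of C57BL/6J mice, adults aged 5 to 6 weeks, with no stated treatment or mutation. ATAC-seq reads open chromatin with the Tn5 transposase, an enzyme that cuts DNA left free by nucleosomes and tags it for sequencing. There was 1 group of 2 biological replicates of 50000 cells each and no control group, so no test between conditions was possible. The replicates carry 1 shared donor identifier, and it is not said whether separate mice were used, so their spread may be technical.

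MAP kinases (ERK, JNK and p38) carry signals from growth factors, cytokines and microbial products to the nucleus, and are active only while a threonine and a tyrosine of their activation loop are phosphorylated. Dual-specificity MAP kinase phosphatases remove both phosphates. The family has nuclear enzymes made after stimulation (Dusp1, Dusp2, Dusp4, Dusp5), cytoplasmic enzymes that prefer ERK (Dusp6, Dusp7) and enzymes that prefer JNK and p38 (Dusp10, Dusp16). Several are themselves made in response to the kinase they act on, and in monocytes and macrophages Dusp1 is known for limiting the output of inflammatory cytokines.

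The DNA under the summits is shown first for the promoter regions that carry sequence matches named in the results, and for the strongest promoter. Letters are GRCm38, the build that the labels call mm10, from the RefSeq genome, on the strand of the gene, 5′ to 3′, within 75 bp of the summit and cut where an exon of a protein-coding gene begins. Capitals mark matches to the motifs searched. In Dusp1 these are the cAMP response element CRE and the GC-rich KLF/SP motif, in Dusp5 the PU.1 motif, the KLF/SP motif and a pair of CArG boxes (the site of serum response factor), in Dusp4 the FOXO and KLF/SP motifs, and in Dusp2 the NF-kB motif. The stretch at Dusp10 holds none, and lies between the start of Dusp10 and an exon of a neighbouring gene, 1700056E22Rik.
Dusp1 main promoter (chr17:26508575-26508725, minus strand): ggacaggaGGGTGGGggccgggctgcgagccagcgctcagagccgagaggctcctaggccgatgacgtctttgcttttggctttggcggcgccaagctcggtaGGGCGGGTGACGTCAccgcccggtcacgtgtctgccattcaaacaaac
Dusp5 main promoter (chr19:53528936-53529086, plus strand): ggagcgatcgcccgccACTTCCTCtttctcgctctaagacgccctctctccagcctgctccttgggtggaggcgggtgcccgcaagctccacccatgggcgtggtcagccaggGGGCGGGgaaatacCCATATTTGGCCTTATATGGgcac
Dusp4 main promoter (chr8:34807081-34807231, plus strand): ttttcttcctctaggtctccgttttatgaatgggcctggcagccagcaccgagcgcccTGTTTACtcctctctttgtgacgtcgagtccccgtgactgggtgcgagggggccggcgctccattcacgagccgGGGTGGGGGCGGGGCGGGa
Dusp2 upstream promoter region (chr2:127335376-127335526, plus strand): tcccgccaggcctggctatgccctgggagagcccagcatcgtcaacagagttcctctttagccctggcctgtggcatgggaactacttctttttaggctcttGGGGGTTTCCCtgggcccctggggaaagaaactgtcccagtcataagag
Dusp10 main promoter (chr1:184034302-184034380, plus strand): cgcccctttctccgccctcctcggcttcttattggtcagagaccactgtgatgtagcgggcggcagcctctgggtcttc

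The next 8 stretches, from regions away from promoters, are shown because each carries a match to a factor of myeloid cells or of the kinase response. Capitals mark, in order, CRE, PU.1 and KLF/SP at -29.8 kb from the main Dusp1 start, a pair of AP-1 sites at -6.4 kb, and NF-kB and KLF/SP at +5.3 kb. They mark NBRE, the site of the Nr4a receptors, at the strongest distal region of Dusp5, C/EBP at Dusp6, PU.1 and KLF/SP at Dusp7, IRF and NF-kB at Dusp10, and AP-1 and PU.1 at Dusp16.
Dusp1 at -29.8 kb (chr17:26538167-26538317, minus strand): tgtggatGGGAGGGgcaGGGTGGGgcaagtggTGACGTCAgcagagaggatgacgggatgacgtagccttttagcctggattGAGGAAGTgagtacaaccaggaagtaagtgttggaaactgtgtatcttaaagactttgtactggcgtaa
Dusp1 at -6.4 kb (chr17:26514793-26514943, minus strand): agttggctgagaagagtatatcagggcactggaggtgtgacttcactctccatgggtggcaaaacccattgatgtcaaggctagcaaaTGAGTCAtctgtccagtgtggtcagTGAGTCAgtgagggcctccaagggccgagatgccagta
Dusp1 at +5.3 kb (chr17:26503088-26503238, minus strand): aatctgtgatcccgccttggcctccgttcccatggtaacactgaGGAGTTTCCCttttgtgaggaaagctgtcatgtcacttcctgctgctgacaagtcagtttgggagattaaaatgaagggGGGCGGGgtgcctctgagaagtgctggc
Dusp5 at -49.3 kb (chr19:53479689-53479839, plus strand): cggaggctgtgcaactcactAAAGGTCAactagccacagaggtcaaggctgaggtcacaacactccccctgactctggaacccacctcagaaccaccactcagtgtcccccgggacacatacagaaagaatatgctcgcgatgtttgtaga
Dusp6 at -51.5 kb (chr10:99211612-99211762, plus strand): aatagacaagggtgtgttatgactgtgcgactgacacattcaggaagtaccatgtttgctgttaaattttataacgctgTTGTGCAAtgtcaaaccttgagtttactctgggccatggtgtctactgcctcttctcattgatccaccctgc
Dusp7 at +17.7 kb (chr9:106386215-106386365, plus strand): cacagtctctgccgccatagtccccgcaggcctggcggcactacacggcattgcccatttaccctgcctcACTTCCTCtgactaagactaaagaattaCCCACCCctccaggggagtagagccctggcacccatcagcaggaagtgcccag
Dusp10 at +14.9 kb (chr1:184049182-184049332, plus strand): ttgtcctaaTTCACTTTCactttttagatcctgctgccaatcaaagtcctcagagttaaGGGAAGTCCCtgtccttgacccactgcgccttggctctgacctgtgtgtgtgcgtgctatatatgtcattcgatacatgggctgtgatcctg
Dusp16 at +39.0 kb (chr6:134753582-134753732, minus strand): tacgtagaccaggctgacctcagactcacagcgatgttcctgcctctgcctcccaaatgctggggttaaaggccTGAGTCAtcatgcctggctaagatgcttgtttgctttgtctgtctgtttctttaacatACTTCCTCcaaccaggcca

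Every one of the 8 genes had an open promoter, meaning a region that overlapped the 1 kb to each side of a coding TSS. Among all protein-coding genes the share was 46.6%. All 8 also had at least 1 region by the rule above, against 58.2% of all genes, and 7 of 8 had at least 1 distal region (farther than 1 kb from every coding TSS), against 36.3%. Dusp4 was the gene with no distal region. Of the 52 regions, 16 were promoter regions and 36 were distal, and their summits lay in intergenic sequence in 29 cases, in introns in 20 and in exons in 3.

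The number of regions differed widely within the family. Dusp1 had 14, Dusp5 had 9, Dusp16 had 8 and Dusp6 had 7, while Dusp2 had 5, Dusp7 and Dusp10 had 4 each and Dusp4 had 1. So 4 of the 8 genes had 7 or more regions, against 2.92% of all genes. The cutoff of 7 is the count at Dusp6 and was not set before the counts were seen, so this contrast is a description only. As many regions as at Dusp1 were seen at 0.233% of protein-coding genes, and as many as at Dusp5 at 1.4%. The 14 of Dusp1 rested on the GENCODE gene models, and RefSeq models gave it 10. The genes differ in the room around them: per 100 kb of the stretch from which regions could be assigned, Dusp2 had 14.3 regions, Dusp1 12, Dusp5 9.07, Dusp16 8.34, Dusp7 5.38, Dusp6 4.16, Dusp10 1.81 and Dusp4 0.865. The median over all genes was 1.11, and over genes with any region 3.43. By this density 3.41% of all genes reached Dusp2, 5.11% reached Dusp1 and 8.95% reached Dusp5, so Dusp1 and Dusp5 were less rare than by count. Dusp2 thus had few regions in a short domain, and Dusp10 and Dusp4 had few in wide domains. The order at the top rested on the joint set. In the thresholded set of replicate 1 alone, and in that of replicate 2 alone, Dusp2 held 2 regions (5.73 per 100 kb) and Dusp1 held 9 (7.71). Dusp16 held 4 regions and Dusp7 held 2 in each of these sets. Dusp5 held 7 in replicate 1 and 6 in replicate 2, Dusp6 held 3 and 6, and Dusp10 held 2 and 3.

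**Figure D1:**
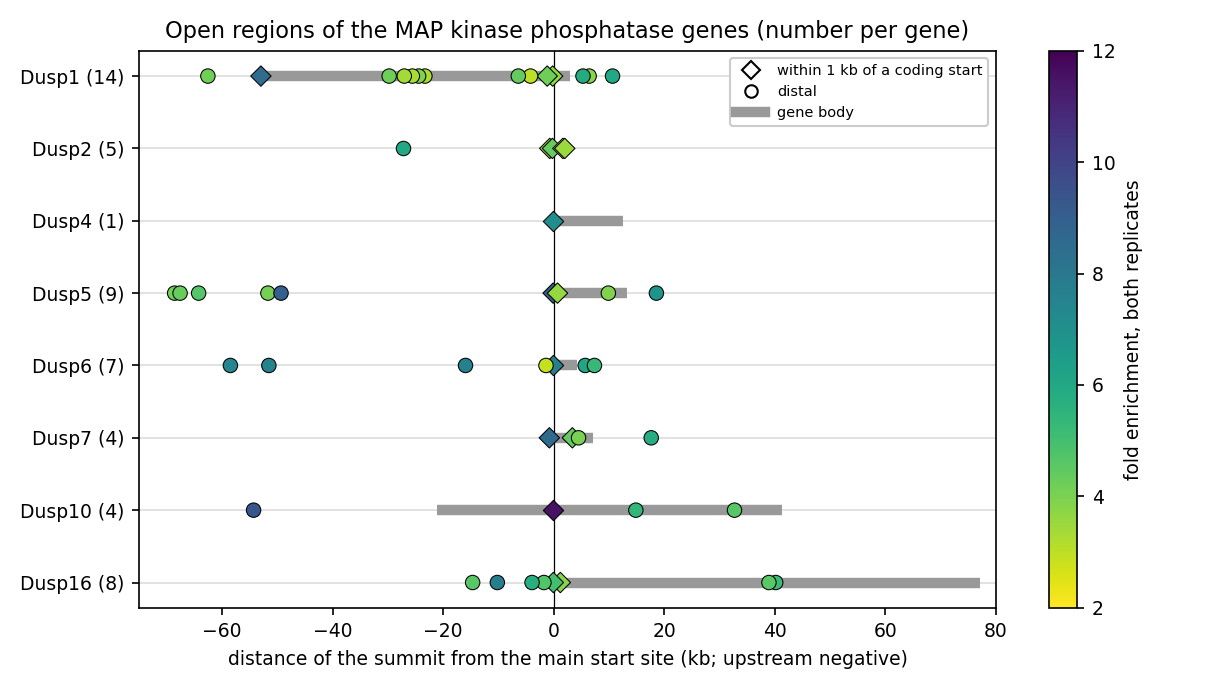
Summit of each open region by distance from the main start of its gene in kb (upstream negative), coloured by fold enrichment in both replicates together. Diamonds lie within 1 kb of a coding TSS, circles are distal and grey bars are gene bodies. Dusp1 carries 14 regions of mostly low fold, and Dusp4 carries 1.

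Strength was given by the fold enrichment of a peak over background, a linear ratio that the authors deposited with each peak. The pooled fold below is that of the conservative set made from both replicates. The value of each replicate comes from its own looser pseudoreplicated set, a name used for peaks that are checked against random subsets of the same reads. Whether a lower fold reflects fewer cells with open DNA or less opening per cell cannot be told apart in such bulk samples. The 52 regions were on the median weaker than the series. Their median pooled fold was 4.61, against 6.49 over all regions. This did not hold for each gene. The median was above 6.49 at Dusp4 (7.10, 1 region), Dusp6 (7.42) and Dusp10 (7.38). It was below at Dusp1 (4.03), Dusp2 (3.52), Dusp5 (4.32), Dusp7 (5.10) and Dusp16 (4.85). At promoter regions the medians were 4.40 at these genes and 7.64 over the series, and at distal regions 4.64 and 6.06. The 16 promoter regions include secondary ones: 14 lay at starts of the 8 genes, and the others at starts of a neighbour only. Over the main promoters alone, the region nearest to the curated start of each gene, the median was 7.41. The series' 7.64 covers every promoter region, secondary ones too, so it is not a like measure. With 1 promoter region per gene, the nearest to a start, medians over all open genes fell with the number of distal regions. They were 8.77 (0 distal regions), 7.99 (1 to 2), 7.10 (3 to 5), 6.26 (6 to 9) and 6.00 (10 or more). Of the 16 promoter regions 5 lay above the series' promoter median, and of the 36 distal regions 8 lay above the distal one. Over the 49 regions found in both replicates the median was 4.72 in replicate 1 and 4.4 in replicate 2, with a mean of 4.56 ± 0.225 (SD, n = 2). Over the 25897 regions of the series found in both it was 6.33 and 6.17, with a mean of 6.25 ± 0.112. The replicates' spread was smaller than this gap, but it is between 2 libraries over the same regions and does not measure how regions differ. Between regions the quartiles of pooled fold overlapped, 3.88 and 6.26 at these genes and 5.16 and 8.44 over the series.

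Regions of these genes ranked higher by −log10 p than by fold. The −log10 p of a peak depends on its number of reads as well as on its fold, so the ranks need not go together. The median −log10 p was 29.9 at the 52 regions and 32.6 over the series. Within its class, the median distal region of these genes stood at the 17.5th percentile by fold and at the 48.6th by −log10 p. For promoter regions these percentiles were 9.77 and 34.6. The −log10 p ranked above the fold at 44 of the 52 regions, against 45.9% of all regions. The 45.9% was not matched for fold, and a region low by fold has more room to rank higher by another measure. The contrast therefore cannot be read apart from the low fold of these regions. The median width at these genes was 430 bp, against 448 bp over the series.

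**Figure D2:**
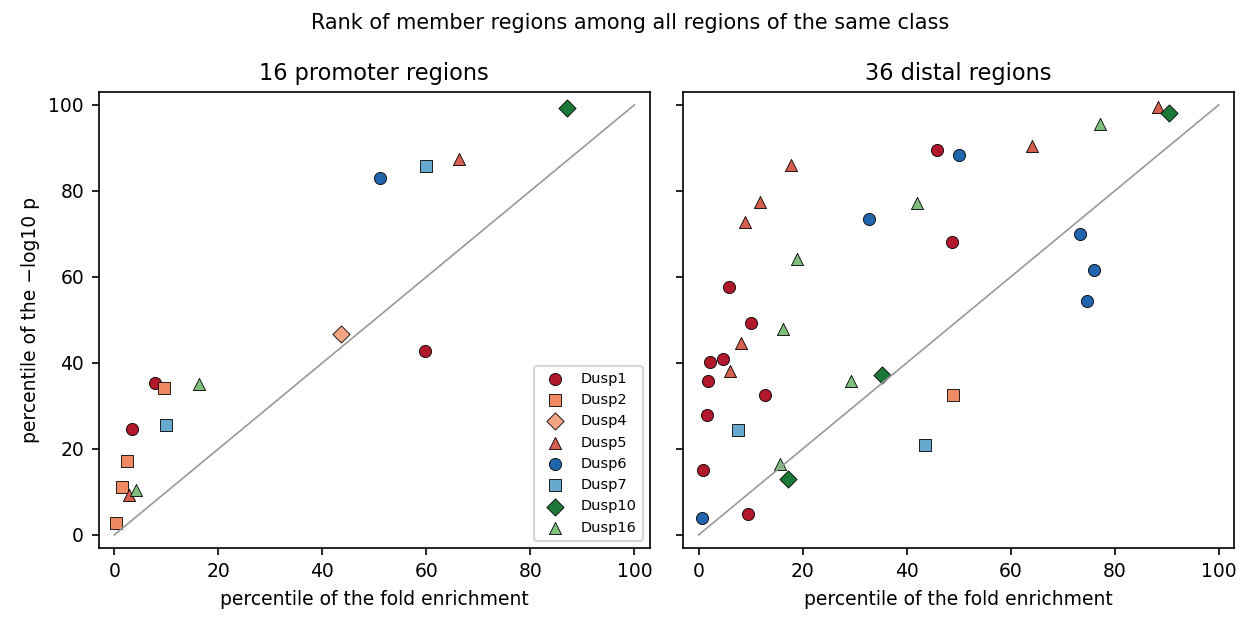
Percentile of the fold enrichment (x axis) and of the −log10 p (y axis) of each region of the 8 genes among all promoter regions (left) or all distal regions (right) of the series. Most points lie above the line of equal rank, and the Dusp6 regions far upstream lie below it.

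The main promoter of each gene, the region nearest to its curated start, is given next, from the strongest to the weakest. Dusp10 had folds of 11.1 in replicate 1 and 11.1 in replicate 2. Dusp5 had 8.85 and 8.53, and Dusp7 had 9.05 and 7.46. These were followed by Dusp6 with 7.45 and 7.22 and Dusp4 with 7.15 and 6.17. The weakest were Dusp16 with 5.26 and 4.78, Dusp2 with 4.31 and 4.2, and Dusp1 with 3.58 and 3.57. Of the 7 pairs of neighbours in this order, the replicates overlapped in 1, Dusp5 and Dusp7. Dusp7 lay above Dusp6 and Dusp6 above Dusp4 by less than 0.1 at the nearest replicates. By pooled fold 4 of the 8 main promoters exceeded the series' promoter median, which covers secondary promoter regions too.

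**Figure D3:**
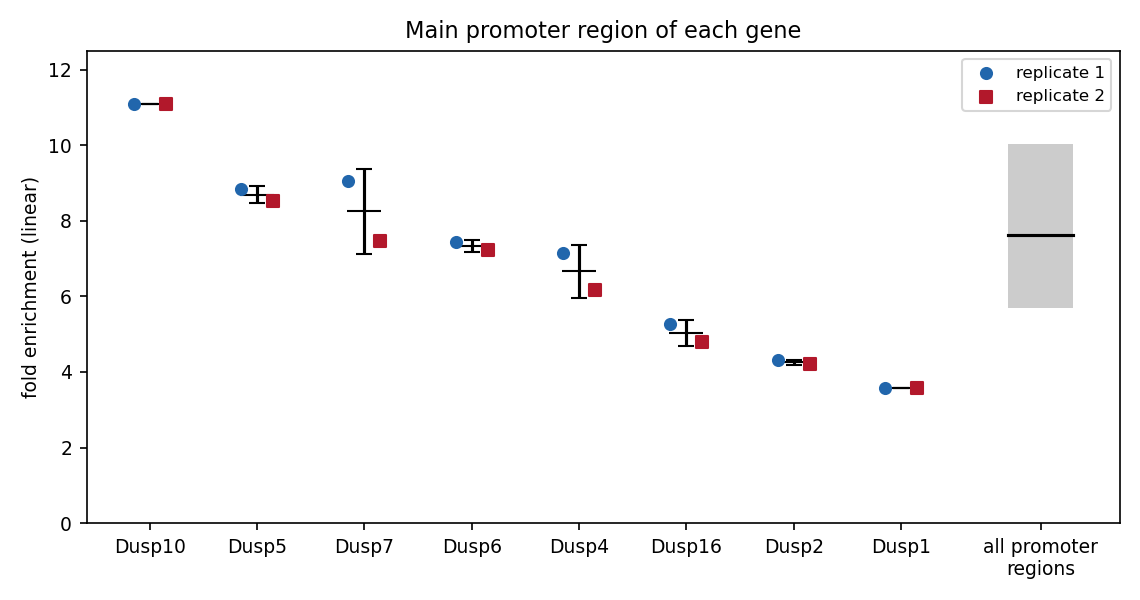
Fold enrichment of the main promoter region of each gene in replicate 1 (circles) and replicate 2 (squares), with the mean and SD (bars, n = 2), beside the quartiles (grey) and median (line) of all promoter regions by pooled fold. Dusp10 stands at 11.1 and Dusp1 at 3.58.

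Dusp1, the stress- and cytokine-induced nuclear enzyme, had the most regions and the weakest main promoter. The promoter region (chr17:26508016-26509023) was 1008 bp wide, with its summit 178 bp upstream of the curated start. Its pooled fold of 3.67 stood at the 3.36th percentile of promoter regions, while its −log10 p of 29.6 stood at the 24.6th and its width at the 87.3rd. A CRE match lay 140 bp and a KLF/SP match 147 bp upstream of the start, in the stretch printed above. A second promoter region at -1.17 kb had folds of 4.28 in replicate 1 and 3.73 in replicate 2.

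Downstream of Dusp1 lay 3 distal regions. The region at +10.7 kb (chr17:26497287-26498039) had folds of 5.99 in replicate 1 and 5.47 in replicate 2, and that at +5.3 kb (chr17:26502933-26503670) had 5.85 and 5.37. The summit of the region at +5.3 kb was 37 bp from the annotated start of a long noncoding RNA gene, AC122252.2, and it held the NF-kB match. Upstream, the region at -6.4 kb (chr17:26514721-26515231), with its pair of AP-1 matches, had 4.62 in replicate 1 and 3.47 in replicate 2. The replicates were 0.41 apart there on the log2 scale, more than at most of the 52 regions. At -29.8 kb (chr17:26538125-26538419) a region of 3.96 and 4.06 held the second CRE match of the family. Its summit was 15 bp from the start of another long noncoding RNA gene, AC122252.1, and its nearest coding TSS was that of Ergic1. The 9 regions of Dusp1 that were neither the main promoter nor among the 4 strongest others ranged in pooled fold between 2.99 and 4.23.

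The strongest region given to Dusp1, at -53.0 kb with folds of 7.47 in replicate 1 and 7.90 in replicate 2, was also the promoter region of a neighbouring gene. Its summit was 30 bp from the TSS of Ergic1. It counted for Dusp1 because the GENCODE M21 models hold a transcript of Dusp1 that starts 53.7 kb upstream of the curated start. With RefSeq models of the members in place of GENCODE's, Dusp1 held 10 regions rather than 14, without those at -27.0, -29.8, -53.0 and -62.6 kb. Of the 14, all were found in both replicates, and 9 were in the stricter thresholded set of replicate 1 and 9 in that of replicate 2.

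Dusp2, a nuclear phosphatase of activated leukocytes, had 4 of its 5 regions between -0.71 and +2.01 kb of its start, 2 of them upstream of the gene and 2 inside it. The main promoter (chr2:127335808-127336272) had a pooled fold of 4.38, the 9.61th percentile of promoter regions. The region 708 bp upstream, which held the NF-kB match, had folds of 3.51 in replicate 1 and 3.07 in replicate 2. At +2.01 kb a region in the last exon of Dusp2 had 3.64 and 3.43. The fourth, at +1.67 kb, had 2.71 in replicate 2, was not found in replicate 1, and was the weakest of the 52 by pooled fold (2.76). For these last regions the nearest TSS was that of Astl. The strongest region of Dusp2 was distal, at -27.3 kb (chr2:127308735-127308986), with 6.62 in replicate 1 and 4.73 in replicate 2, the widest gap between replicates among the 52 on the log2 scale (0.48).

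Dusp4, a nuclear phosphatase, had its promoter region alone (chr8:34806992-34807408). The fold was 7.15 in replicate 1 and 6.17 in replicate 2, a mean of 6.66 ± 0.698 (SD, n = 2). A FOXO match lay 155 bp upstream of the GENCODE start. The looser replicated set of the series gave Dusp4 6 regions, of which 5 had no counterpart in the conservative set and ranged in fold between 2.2 and 5.0. A region of pooled fold 8.92 at -184 kb had Dusp4 as its nearest gene and fell outside the 100 kb of the rule.

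Dusp5, the nuclear phosphatase that acts on ERK, combined a strong promoter with a group of far upstream regions. The main promoter (chr19:53528736-53529460) had folds of 8.85 in replicate 1 and 8.53 in replicate 2 and a −log10 p of 99.6, the 87.4th percentile of promoter regions. Its pair of CArG boxes lay 41 and 31 bp upstream of the GENCODE start, and a PU.1 match 153 bp upstream. CArG boxes were found in 0.935% of all promoter regions of the series. A promoter region at +0.7 kb had 3.34 and 3.59.

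The strongest distal region of Dusp5, at -49.3 kb (chr19:53479307-53480020), was close to the promoter in strength. It had 9.12 in replicate 1 and 8.36 in replicate 2, and its mean of 8.74 ± 0.542 (SD, n = 2) overlapped the promoter's 8.69 ± 0.224. It held the sole NBRE match of the family. The region at +18.6 kb (chr19:53547482-53548054) had 6.77 and 5.73. Farther upstream, regions at -64.3, -67.6 and -68.6 kb had pooled folds of 4.66, 4.32 and 4.13. Those at -64.3 and -68.6 kb had their summits 58 and 113 bp from the starts of the long noncoding RNA genes Mirt1 and 4833407H14Rik. The 4 regions of Dusp5 outside its main promoter and its 4 strongest others ranged between 3.60 and 4.13.

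Dusp6, the cytoplasmic phosphatase of ERK, had 6 distal regions, of which the 3 strongest were narrow and lay upstream. The main promoter (chr10:99262897-99263378) had folds of 7.45 in replicate 1 and 7.22 in replicate 2. The region at -16.0 kb (chr10:99247142-99247460) had 6.83 and 6.82, that at -51.5 kb (chr10:99211555-99211833) 5.83 and 7.36, and that at -58.5 kb (chr10:99204592-99204927) 6.53 and 7.18. All 3 were between 279 and 336 bp wide, and all were in the thresholded set of replicate 2 and not in that of replicate 1. Dusp6 thus had 3 regions in the thresholded set of replicate 1 and 6 in that of replicate 2. Downstream, the region at +5.7 kb (chr10:99268752-99269152) had 6.40 and 6.29, and that at +7.4 kb, with its summit 169 bp from the start of the long noncoding RNA gene Gm34921, had 5.13 and 5.15. The looser replicated set held 11 further regions at Dusp6, the most of the 8 genes, with folds between 2.65 and 6.65. A weak region at -1.39 kb had 2.95 in replicate 2 and was not found in replicate 1.

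Dusp7, the other cytoplasmic phosphatase of ERK here, had a main promoter region (chr9:106367604-106368137) with its summit 779 bp upstream of the TSS, the farthest of the family. Its replicates were the least even of the main promoters, with 9.05 in replicate 1 and 7.46 in replicate 2 (mean 8.25 ± 1.12, SD, n = 2). The strongest other region, at +17.7 kb (chr9:106386157-106386492), had 6.33 and 5.21 and a PU.1 match 1 bp from its summit. Inside the gene, a promoter region at +3.39 kb, near a second coding start, had 3.97 and 4.39, and a distal region at +4.51 kb had 4.07 and 3.52.

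Dusp10, which acts on JNK and p38, had the strongest promoter of the family. The region (chr1:184033535-184034597) was 1063 bp wide, and its pooled fold of 11.5 and −log10 p of 149 stood at the 87th and 99.4th percentiles of promoter regions. The mean of its replicates was 11.1 ± 0.00118 (SD, n = 2). Since the region also covers the start of 1700056E22Rik, which runs the other way, the signal of the 2 promoters cannot be told apart. The region at -54.3 kb (chr1:183979597-183980449) was the strongest distal region of the 8 genes by GENCODE models, with 8.81 in replicate 1 and 10.1 in replicate 2. It was given to Dusp10 through a GENCODE start at -21.1 kb, and RefSeq models, which lack that start, did not give it to Dusp10. The strongest distal region was then that of Dusp5 at -49.3 kb. The region at -54.3 kb held none of the motifs searched. Within the gene, regions at +14.9 kb (chr1:184049075-184049398) and +32.7 kb (chr1:184066946-184067268) had 4.80 and 5.00, and 4.72 and 4.26. No summit of the series lay within 21 kb of the start at -21.1 kb.

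Dusp16, a phosphatase of JNK and p38, had a weak promoter and a row of regions upstream. Its main promoter (chr6:134792494-134792938) had folds of 5.26 in replicate 1 and 4.78 in replicate 2. The region at -10.2 kb (chr6:134802480-134803180) was stronger than the promoter in each replicate, with 7.51 and 7.26. Closer to the gene, regions at -3.91 kb and -1.76 kb had 5.15 and 5.69, and 4.6 and 4.1. The region at -14.7 kb, with 5.20 in replicate 1 and 3.78 in replicate 2, had its summit 224 bp upstream of a start that RefSeq predicts for Dusp16. Deep in the gene, a region at +40.2 kb had 4.59 and 5.16, and its neighbour at +39.0 kb, with AP-1 and PU.1 matches, had 4.67 and 3.88. A promoter region at +1.21 kb had 3.98 in replicate 2 and was not found in replicate 1.

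Across the family 49 of the 52 regions (94.2%) were found in both replicates, against 91.1% of all regions. The remaining 3, at Dusp2, Dusp6 and Dusp16, were missing from replicate 1, and replicate 2 held all 52. The difference in log2 fold, replicate 1 minus replicate 2, was centred on 0.05 (median) with an SD of 0.19 over the 49 regions, against 0.03 and 0.24 over the series. Across the 49 regions, which share their libraries and are not replicates of each other, the Spearman correlation was 0.872 and the Pearson correlation of log2 folds 0.917. Over the series these were 0.863 and 0.880. In the stricter thresholded sets of single replicates, 30 of the 52 regions had a counterpart in replicate 1 and 33 in replicate 2. Of the 52, 24 had one in both and 13 in neither, against 14310 and 8439 of the 28438 regions of the series. The shares of 57.7% in replicate 1 and 63.5% in replicate 2 were close to the 59.8% and 60.9% of all regions.

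**Figure D4:**
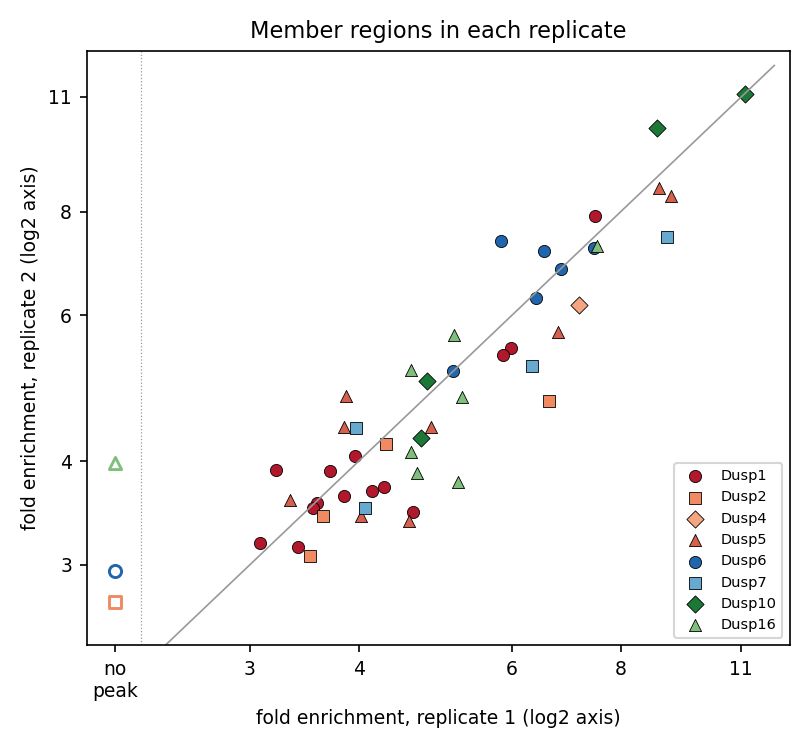
Fold enrichment of each region of the 8 genes in replicate 1 (x axis) and replicate 2 (y axis), both on log2 axes, with the line of equal fold. Open symbols at the left are the 3 regions with no peak in replicate 1.

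Motifs were searched on both strands within 100 bp of each summit, and a match is a description of letters only. AP-1 (TGANTCA), the site of Fos and Jun proteins, was found in 0 of 16 promoter regions, against 3.74% over the series, and in 4 of 36 distal regions, against 11.3%. A count of 4 of 36 is 11.1%, close to the series. The 4 lay at Dusp1 (-6.4 and -27.0 kb), Dusp5 (-64.3 kb) and Dusp16 (+39.0 kb). PU.1 (GAGGAAGT), the site of the leading myeloid factor, was found in 8 of the 52 regions (15.4%), against 8.94%, and IRF (GAAANNGAA) in 6 (11.5%), against 6.76%. C/EBP (TTGCNNAA) was found in 5 (9.62%), against 10.8%, and RUNX (AACCACA) in 3 (5.77%), against 7.20%.

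The remaining motifs had these counts. CRE (TGACGTCA) was found in 2 regions (3.85%), against 1.78%, and the CArG box in 2 (3.85%), against 1.09%, at the Dusp5 promoter and the region shared with Ergic1. The NF-kB motif was found in 3 (5.77%), against 3.40%. NBRE (AAAGGTCA), FOXO (GTAAACA) and STAT (TTCNNNGAA) had 1 match each, against 2.02%, 2.27% and 4.91%. KLF/SP (GGGNGGG) was found in 20 (38.5%), against 35.2%. CTCF had no match in the 52 regions, against 6.60% over the series, nor did EGR (GCGTGGGCG), against 0.390%. No match of any motif was found in 15 regions (28.8%), against 29.7%. In the windows printed above no match overlapped one of another motif.

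Long noncoding RNA genes began near several of the distal regions. The summit lay within 500 bp of such a start in 5 of the 36 distal regions, against 2.41% of all distal regions. This property was looked for after the regions had been seen. The 5 are those named above at Dusp1, Dusp5 and Dusp6.

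Since Dusp1 had most regions and the weakest promoter, promoter strength was set beside the number of distal regions across genes. Among all genes with an open promoter, those with 10 or more distal regions (104 genes) had a median promoter fold of 6.00, with quartiles of 4.86 and 7.97, and those with 0 distal regions (5217 genes) had 8.77, with quartiles of 6.78 and 10.9. Dusp1, with 11 distal regions and 3.67, lay below the lower quartile of its class. Dusp5 at 9.10 lay above the upper quartile of genes with 6 to 9 distal regions (4.87 and 8.02), and Dusp10 at 11.5 above that of genes with 3 to 5 (5.4 and 9.25). Dusp2 at 4.38 lay below the lower quartile of genes with 1 to 2 (6.11). This grouping was chosen after the values had been seen.

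**Figure D5:**
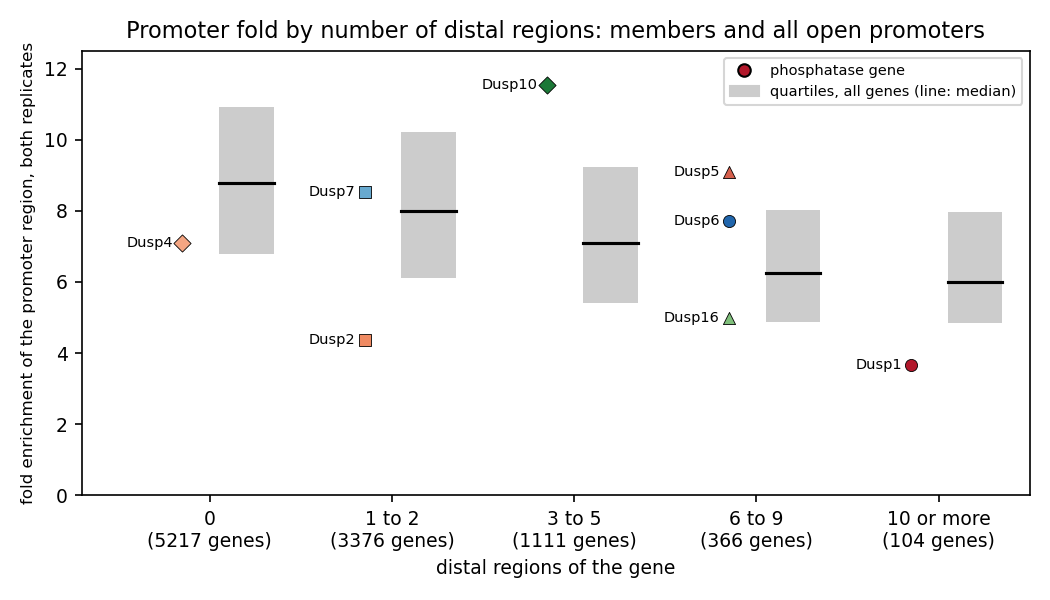
Pooled fold enrichment of the promoter region of each phosphatase gene (coloured symbols) by its number of distal regions, beside the quartiles (grey) and median (line) of all genes with an open promoter in the same class. Dusp1 and Dusp2 lie below the quartiles of their class, and Dusp5 and Dusp10 above.

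The genes most like Dusp1, with 11 distal regions each and the smallest root mean square difference in log2 promoter fold over the 2 replicates among 24 candidates, were Zfp516 (0.0997), Runx2 (0.100) and Zfp608 (0.293). Their promoter folds were 3.27 and 3.46 for Zfp516, 3.95 and 3.63 for Runx2 and 4.40 and 4.36 for Zfp608 in replicates 1 and 2.

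The rest of the pathway was mostly open at its promoters too, beside 46.6% of all protein-coding genes. The classical phosphatases outside the set, Dusp8 and Dusp9, had 0 regions. Of 15 atypical and other dual-specificity phosphatases 12 had an open promoter, the exceptions being Dusp14, Dusp26 and Ssh1, and Ssh2, a cofilin phosphatase, had most regions with 8. Of the MAP kinases 7 of 10 were open, with 7 regions at Mapk14, the main p38 kinase, and none at the promoters of Mapk10, Mapk11 and Mapk12. In the thresholded set of each single replicate 6 of these 10 were open. All 7 MAP kinase kinases were open. Of the MAP3 kinases 8 of 10 were open, and Map3k5 and Map3k1 had 11 and 8 regions without an open promoter in the conservative set. In the thresholded set of replicate 2 alone 9 of the 10 were open. Of the MAPK-activated kinases 8 of 9 were open, with 9 regions at Mapkapk2, a target of p38, and 0 at Rps6ka4.

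Promoter folds were also read at other inhibitors and at early targets of ERK. Of 9 other feedback inhibitors 8 had an open promoter, with folds between 4.73 and 9.77, and Spred2 had most regions with 9. In the thresholded set of each single replicate 5 of these 9 were open. Of 12 early genes downstream of ERK 10 had an open promoter (8 in the thresholded set of replicate 1 alone and 10 in that of replicate 2). All 10 of the conservative set lay below the series' promoter median of 7.64, between 2.44 and 6.35. The 9 open promoters of the monocyte markers checked below also lay under that median, between 3.82 and 7.17. Fos had 12 regions with a promoter fold of 4.54 in replicate 1 and 4.85 in replicate 2, Ier2 had 9 with 5.54 and 4.53, and Fosb had 8 with 4.59 and 5.80. Myc and Ier3 had no open promoter. The medians of pooled promoter fold were 7.41 over the 8 phosphatases, 5.11 over the open early genes, 5.8 over the open monocyte markers and 11.7 over the MAP kinase kinases.

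At the edges of the rule, the farthest region inside was that of Dusp5 at -68.6 kb, with a pooled fold of 4.13. Outside it, Dusp6 was the nearest gene of a region at +130 kb of fold 5.72, and Dusp10 of regions at -231 and +232 kb of 6.38 and 5.44. These were not counted.

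The label of the cells was checked against marker genes. Of 10 monocyte markers 9 had an open promoter, the exception being Ccr2, which had 3 distal regions. Open promoters were also seen at 2 of 5 B cell markers (Pax5 and Cd79b), 1 of 5 T cell markers (Cd3d) and 1 of 4 erythroid markers (Klf1), and at 0 of 4 NK cell, 0 of 5 neutrophil and 0 of 4 platelet markers. The pooled fold at Cd3d was 12.1, above the range of the open monocyte markers (3.82 to 7.17). At Pax5, Klf1 and Cd79b it was 5.60, 4.97 and 3.89. In the thresholded set of replicate 1 alone 7 of the 10 monocyte markers had an open promoter, and in that of replicate 2 alone 5. For NK cell markers these counts were 1 and 0, for T cell markers 1 and 1, and for B cell markers 0 and 0. Distal regions were assigned to 7 of the 10 monocyte markers, 3 of the 4 NK cell markers (with 7 regions at Klrb1c), 3 of the 5 neutrophil and 2 of the 4 platelet markers. They were also assigned to 3 of the 5 B cell, 2 of the 5 T cell and 0 of the 4 erythroid markers. Among all protein-coding genes the share with a distal region was 36.3%. What part cells other than monocytes had in the regions above was not tested. The deposited lists hold no read counts, so sequencing depth is unknown and no interval or floor can be stated.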

How the data were processed

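The data were ATAC-seq peak lists of mouse blood monocytes (2 replicates), on mm10 per the labels. The authors deposited peaks of each replicate and peaks of both together. Per the deposited README, the joint sets derive from both alignments plus an input it does not describe. Each peak's fold enrichment, a ratio over background, and its −log10 p are as deposited by the authors, and the fold was read by the convention of the peak format. For the aligner, the peak caller and the Tn5 shift, names and versions were not given in the sources used here. IDR, the irreproducible discovery rate, keeps peaks whose rank is stable between replicates. Depth is unknown, and the number of peaks can move with it.

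Overlapping peaks of the conservative IDR-thresholded set (39944 peaks, chromosomes 1 to 19, X and Y) were merged, each region taking the highest fold of its peaks and the summit of the peak with the lowest p. Gene models were GENCODE M21 and RefSeq, both on GRCm38. The main start of a gene is the GENCODE start nearest a curated RefSeq one. A region was found in a replicate when it overlapped a peak there by 1 bp. Motifs (14) were matched in RefSeq sequence. The steps were tested on simulated peaks. No test between groups exists here, and values are descriptions.

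Members, lists and motifs were chosen with earlier results of these data known. Named are all members, their main promoter and up to 4 other regions by fold (a few more for their motif or place, chosen after values were seen), of each list up to 3 genes with most regions and up to 3 without an open promoter (for some lists fewer are printed), and the 3 genes most like Dusp1. Python 3.11.15, pandas 2.3.3, numpy 2.4.6 and matplotlib 3.10.9 were used.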

Additional observations from a re-analysis of the deposited data

How the results depend on the processing

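The count of 52 regions rested on the peak set: the replicated set gave 94 and the pseudoreplicated set 97, and the thresholded sets of single replicates 30 to 33. The size of the whole set moved along with it. It was 28438 in the main set, 55857 in the replicated set, 52671 in the pseudoreplicated set and 17604 to 18057 in single replicates. The median fold at the 8 genes was 3.93 in the replicated set and 3.96 in the pseudoreplicated set, and 5.21 to 5.37 in single replicates. It stayed below the median of the whole set in each of these (4.59, 4.74, 7.33 and 7.12). The count of 49 regions found in both replicates fell to 24 in their own thresholded sets, and that of the whole series fell from 25897 to 14310. AP-1 matches were found in 9 regions, not 4, with 200 bp to each side of the summit, a window with about double the letters. The series was not counted at this wider window. The 9 therefore cannot be set beside the AP-1 shares of the series given above, which are for the narrower window. All 8 promoters were open under every alternative run. Other distances, merging rules, windows and gene models kept the counts within 1.5 times. The cause of the other shifts was not tested. No paired analysis was possible because there is 1 group. Limits are the unknown depth, 2 replicates that may be technical, peak lists with no value below their threshold, and assignment of regions by distance alone.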
